A study of Mus musculus with 39 samples.

Results

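The liver transcripts described here encode 9 positive acute phase plasma proteins of the mouse: the orosomucoids Orm1, Orm2 and Orm3, the pentraxins Apcs and Crp, haptoglobin (Hp), hemopexin (Hpx), and the inter-alpha-trypsin inhibitor heavy chains Itih3 and Itih4. Their probes were chosen by the RefSeq transcript each one is assigned to, a rule that used no measured value. The genes themselves, and the gene lists below, were chosen with earlier results of these data known. Each gene was read by 1 probe, and the 9 genes stand among 18259 genes that had a RefSeq probe on the array. Acute phase proteins are secreted by hepatocytes in larger amounts when inflammation or tissue injury sends cytokines, chiefly IL-6 and IL-1, and glucocorticoids to the liver. STAT3, the C/EBP factors and the glucocorticoid receptor carry these signals to the promoters. Among pentraxins, serum amyloid P component (Apcs) is the inducible one in mice, whereas C-reactive protein (Crp), the leading acute phase pentraxin of humans, is made at low levels by mouse liver.

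All 39 livers were from C57BL6/J mice, and each was read on 1 two-colour array, with the liver RNA in Cy5 and a pooled reference RNA of mouse cell lines in Cy3, without a dye swap. Aggressor-exposed (AggE) mice spent 6 hrs a day in a small cage set inside the home cage of an aggressor, without food or drink, and met the aggressor directly 3 times per session, whereas control (Ctrl) mice followed the same schedule with no aggressor near. Livers of 4 Ctrl and 5 AggE mice were taken 24 hrs post-5-day, 24 hrs post-10-day and 1.5 wks post-5-day, and livers of 6 Ctrl and 6 AggE mice 4 wks post-10-day. The authors also describe a partition test, given 1 hr before the terminal bleed, in the home cage of an aggressor but without physical contact. Below, "after 5 days" and "after 10 days" stand for the 24 hrs points of these regimens. The model is whole liver, in which fewer cells of a type and less RNA per cell cannot be told apart. Every value below is a log2 ratio of liver to reference RNA after background correction, loess and quantile normalization, unless a single dye is named, and a change is the AggE mean minus the Ctrl mean on that scale. A gene was called where the Benjamini-Hochberg adjusted p of limma's moderated test, over all RefSeq probes, was 0.05 or less.

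The arrays were uneven. Feature Extraction marked 15.2% to 70.4% of the probes of an array as well above background in Cy5 and 27.8% to 73.4% in Cy3. On 8 arrays the fitted Cy3 background fell to between -1075 and -148.6 intensity units, against -53.51 to 15.84 on the other 31. All 8 were AggE arrays, namely mice 1 and 5 at 24 hrs post-5-day, mice 1 and 5 at 24 hrs post-10-day, mouse 2 at 1.5 wks, and mice 1, 2 and 3 at 4 wks. Each of these arrays held 10 to 44 spots, of 45018, with a signal 20 units or more under its local background. Setting the local background of such spots to the median of the array ("repaired" below) brought the fits of these 8 arrays to between -3.882 and 15.12. Such spots were not confined to these 8, since the other 31 arrays held 0 to 56 of them. The values below are as processed unless repaired backgrounds or leaving out the 8 arrays are named. At 24 hrs no slide held both AggE and Ctrl livers, so slide and group cannot be told apart there. The tissue label was borne out by hepatocyte genes, with 6 of 6 measured hepatocyte markers well above background on all arrays of every group.

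At 24 hrs post-5-day, 3 of the 9 genes were called and all 3 were higher in AggE: Apcs by 4.80-fold, Orm3 by 4.93-fold and Orm2 by 2.83-fold. Of all genes tested, 3.19% were called in that comparison. With the slide as a random block only Apcs of the 3 was called, and 9 genes in all. At 24 hrs post-10-day 2 of the 9 were called, Orm3 and Apcs, both higher in AggE, where 0.0931% of all genes were called. The other 6, Orm1, Itih3, Hp, Hpx, Itih4 and Crp, were called at neither point as processed. The median change of the 9 genes was 1.29 at 24 hrs post-5-day and 0.37 at 24 hrs post-10-day, against 0.0016 and -9e-04 for all genes, and 8 of the 9 lay above 0 at each point. At 1.5 wks no gene was called, and at 4 wks the single call was Crp.

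**Figure D1:**
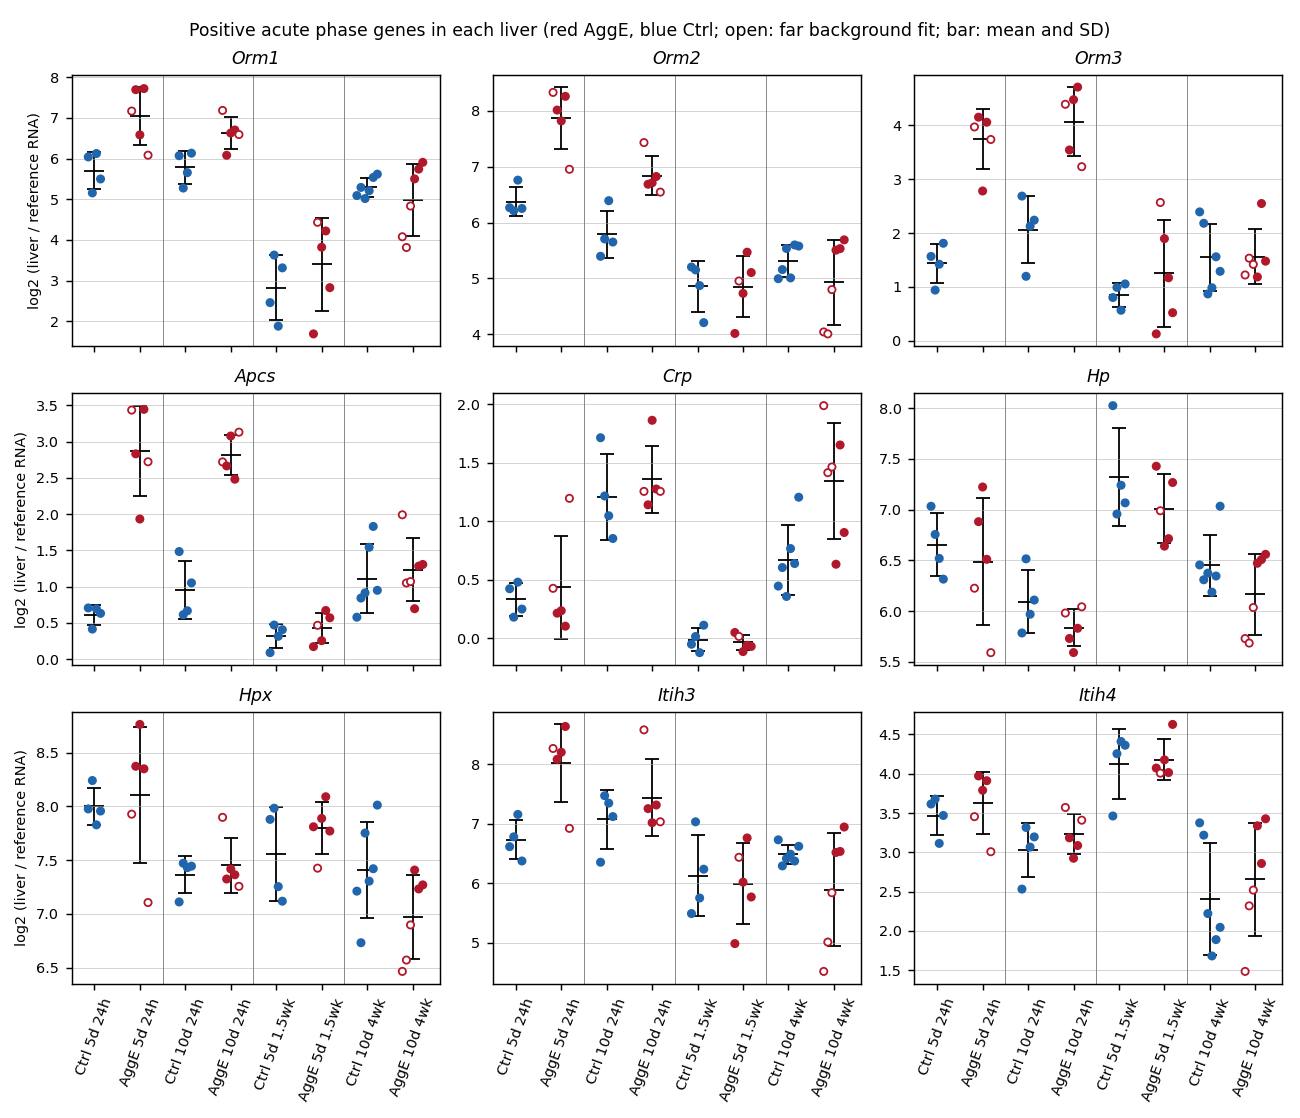
Log2 ratio of liver to reference RNA (vertical axes) in each of the 39 livers for the 9 genes, by group; red points are AggE and blue points Ctrl mice, open points are the 8 arrays with a far background fit, and bars are the group mean and SD. The AggE livers at both 24 hrs points sit above all of their Ctrl livers for Orm2, Orm3 and Apcs, while those of Hp, Hpx and Itih4 overlap.

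The orosomucoids, or alpha-1-acid glycoproteins, are lipocalins that carry basic and lipophilic ligands in plasma and modulate immune cells. The 3 genes are neighbours on chromosome 4. The promoters of Orm2 and Orm3 (RefSeq, GRCm38.p6, 250 bases before the start) are shown because both genes were called and the sequences are alike, with 219 of 255 aligned positions identical (85.9%), against 44.8% to 51.7% for all other pairs of the 7 member promoters in the table. Orm2 lies at chr4:63362199-63362448 and Orm3 at chr4:63355908-63356157, both on the plus strand. Capitals mark matches, on either strand, to the loosely written C/EBP consensus TTNNGNAA and to TGTTCT, the hexamer of the glucocorticoid receptor element.
Orm2: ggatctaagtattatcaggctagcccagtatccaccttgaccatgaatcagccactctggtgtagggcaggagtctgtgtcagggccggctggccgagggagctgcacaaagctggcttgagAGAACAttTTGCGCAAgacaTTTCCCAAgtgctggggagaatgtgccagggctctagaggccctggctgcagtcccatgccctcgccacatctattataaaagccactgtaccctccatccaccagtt
Orm3: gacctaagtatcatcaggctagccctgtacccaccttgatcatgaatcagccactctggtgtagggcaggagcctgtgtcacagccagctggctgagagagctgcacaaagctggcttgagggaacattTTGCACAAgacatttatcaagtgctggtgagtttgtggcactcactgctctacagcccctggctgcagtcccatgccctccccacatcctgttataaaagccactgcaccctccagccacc
In Orm2 the C/EBP letters begin 120 and 108 bases before the start, the first of them reading the same on both strands, and the glucocorticoid receptor hexamer begins 128 bases before it. In Orm3 a single C/EBP match begins 121 bases before the start. The matches do not overlap one another. Of 32851 mouse promoters of this length, 36.8% held the C/EBP letters and 16.1% the glucocorticoid receptor hexamer, so neither is rare.

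After 5 days Orm2 read 6.27, 6.21, 6.76 and 6.25 in the 4 Ctrl livers and 8.33, 8.01, 7.82, 8.26 and 6.95 in the 5 AggE livers. The lowest AggE liver, mouse 5, stood just above the highest Ctrl liver, so the groups did not overlap. Orm2 was higher in AggE by 1.50 ± 0.32 (SE; limma adjusted p = 0.00748). With repaired backgrounds the change was 1.46 ± 0.23 (adjusted p = 0.000801), and without the 8 arrays it was 1.66 (adjusted p = 0.000645). With no normalization between arrays it was 0.44 and not called (adjusted p = 0.865), and over 24 other settings it ran from 0.23, in the ratios of the series table, to 2.20. After 10 days Orm2 read 5.40, 5.71, 6.39 and 5.65 in Ctrl and 7.43, 6.69, 6.71, 6.82 and 6.55 in AggE. Again every AggE liver was above every Ctrl liver, but the change of 1.05 ± 0.32 was not called (unadjusted p = 0.00229, limma adjusted p = 0.814). Nor was it called with repaired backgrounds (1.05 ± 0.23, adjusted p = 0.103). Over 24 other settings it ran from -0.07, with the processed signals, to 6.43.

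Orm3 had the largest change of the 9 genes at both 24 hrs points. After 5 days it read 1.57, 0.94, 1.42 and 1.81 in Ctrl and 3.97, 4.15, 2.78, 4.05 and 3.73 in AggE, with the lowest AggE liver well clear of the Ctrl range. The change was 2.30 ± 0.40 (limma adjusted p = 0.0012), the eighth largest rise of all genes. After 10 days it read 2.68, 1.20, 2.13 and 2.24 in Ctrl and 4.39, 3.54, 4.47, 4.70 and 3.23 in AggE, again without overlap, a change of 2.00 ± 0.40 (4.01-fold, adjusted p = 0.0224). Of all genes, 2.61% and 1.1% had every AggE array above every Ctrl array at the 24 hrs points after 5 and 10 days. The later call rests on the processing. With repaired backgrounds Orm3 rose by a called 2.42 ± 0.45 after 5 days (adjusted p = 0.0042), while the value after 10 days was 1.94 ± 0.45 (adjusted p = 0.163) and AggE mouse 5, at 3.07, fell below the highest Ctrl liver, at 3.17. Without the 8 arrays both were called, at 2.23 (adjusted p = 0.0041) and 2.18 (adjusted p = 0.0433).

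Orm1 was higher on average in AggE, with more spread, and stood at -0.15 after 5 days in the log10 ratios of the series table (given in log2). After 5 days it read 6.04, 5.16, 6.12 and 5.50 in Ctrl and 7.17, 7.69, 6.58, 7.72 and 6.08 in AggE. In 4 of 5 AggE livers it was above every Ctrl liver, and mouse 5, whose array had a far background fit, lay within the Ctrl range. The difference was 1.34 ± 0.45 (2.54-fold) and was not called (limma adjusted p = 0.0897). With repaired backgrounds Orm1 read 6.61, 5.72, 6.68 and 6.08 in Ctrl and 7.65, 8.23, 7.12, 8.27 and 7.35 in AggE, the groups no longer overlapped, and the change of 1.45 ± 0.39 was called (adjusted p = 0.0476), as it was without the 8 arrays (1.63, adjusted p = 0.0272). After 10 days the Orm1 difference was 0.85 ± 0.45, with an interval of -0.06 to 1.76 (95%) and 4 of 5 AggE livers above all Ctrl livers. It was 0.77 with repaired backgrounds and 0.69 without the 8 arrays. With no normalization between arrays it was -0.04, and it kept its sign in 21 of 24 other settings. The 3 orosomucoid genes are close paralogs, and how far their probes share signal was not tested, since probe sequences were not used here.

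The pentraxins bind to bacterial surfaces, chromatin and damaged cells and pass them to complement and Fc receptors. Apcs and Crp lie side by side on chromosome 1. Their promoters are shown because Apcs was called at both 24 hrs points and its neighbour Crp at neither, with Apcs at chr1:172895055-172895304 on the minus strand and Crp at chr1:172697806-172698055 on the plus strand (GRCm38.p6). Capitals mark the STAT palindrome TTCNNNGAA, the core of the IL-6 response element CTGGGAA, the C/EBP consensus and the glucocorticoid receptor hexamer.
Apcs: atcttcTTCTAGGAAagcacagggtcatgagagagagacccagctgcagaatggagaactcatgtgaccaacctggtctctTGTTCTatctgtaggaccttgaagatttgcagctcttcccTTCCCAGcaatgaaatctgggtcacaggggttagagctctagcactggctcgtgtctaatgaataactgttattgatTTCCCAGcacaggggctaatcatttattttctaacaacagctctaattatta
Crp: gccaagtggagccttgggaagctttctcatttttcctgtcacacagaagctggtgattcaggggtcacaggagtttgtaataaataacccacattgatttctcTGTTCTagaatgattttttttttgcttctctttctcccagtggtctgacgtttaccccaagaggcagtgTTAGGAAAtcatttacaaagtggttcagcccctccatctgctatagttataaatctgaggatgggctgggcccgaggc
In Apcs a STAT match begins 244 bases before the start, a glucocorticoid receptor hexamer 169 bases before it, and the IL-6 response element core, read on the opposite strand, 129 and 52 bases before it. No match overlaps another. Crp held a glucocorticoid receptor hexamer 147 bases and a C/EBP match 78 bases before its start. The STAT letters were found in 7.02% and the IL-6 response element core in 9.1% of all promoters. Over the 7 member promoters in the table, the C/EBP letters were in 4 (Orm2, Orm3, Crp and Hpx), the glucocorticoid receptor hexamer in 3, the STAT letters in 2 (Apcs and Itih4), and the IL-6 response element core in 1. The HNF1 core GTTAAT was in none of the 7 and in 6.43% of all promoters. The presence of these letters is a description and not evidence of binding.

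Apcs gave the most uniform result. After 5 days it read 0.71, 0.41, 0.69 and 0.63 in Ctrl and 3.44, 2.83, 1.93, 3.45 and 2.72 in AggE, that is 0.61 ± 0.14 (SD, n = 4) against 2.87 ± 0.62 (SD, n = 5). After 10 days it read 1.48, 0.61, 0.67 and 1.05 in Ctrl and 2.72, 2.67, 3.08, 2.48 and 3.13 in AggE. All 10 AggE livers were thus above all 8 Ctrl livers of the 24 hrs points. Apcs rose by 2.26 ± 0.25 after 5 days (limma adjusted p = 1.18e-06) and by 1.86 ± 0.25, or 3.63-fold, after 10 days (adjusted p = 6.56e-05). With repaired backgrounds the changes were 2.30 ± 0.28 (adjusted p = 6.82e-06) and 1.93 ± 0.28 (adjusted p = 0.000267), and without the 8 arrays 2.13 (adjusted p = 8.34e-05) and 1.79 (adjusted p = 0.00273). In the spot intensities as deposited, before any normalization, the Cy5 signal of Apcs was 35.6 ± 5.79 in Ctrl and 130 ± 37.7 in AggE after 5 days, and 55.9 ± 19.8 and 164 ± 58.6 after 10 days (SD, n = 4 and n = 5).

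Crp was near the limit of detection. Its probe was well above background in Cy5 on 1 of 4 Ctrl and 1 of 5 AggE arrays at 24 hrs post-5-day, on all 9 arrays at 24 hrs post-10-day, on no array at 1.5 wks and on all 12 at 4 wks. After 5 days it read 0.42, 0.18, 0.48 and 0.25 in Ctrl and 0.43, 0.21, 0.24, 0.10 and 1.20 in AggE, a difference of 0.10 ± 0.21 (interval -0.33 to 0.53). After 10 days it read 1.71, 1.22, 1.05 and 0.85 in Ctrl and 1.26, 1.14, 1.86, 1.28 and 1.26 in AggE. The groups overlapped at both points. The difference after 10 days was 0.15 ± 0.21, with an interval of -0.28 to 0.58. With repaired backgrounds the differences were -0.09 and -0.02, and without the 8 arrays -0.15 and 0.22, so no direction can be given for Crp at either point.

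Haptoglobin and hemopexin bind free hemoglobin and free heme in plasma and deliver them to macrophages and hepatocytes for breakdown. Hp read 7.03, 6.76, 6.52 and 6.31 in Ctrl and 6.23, 6.88, 7.22, 6.51 and 5.59 in AggE at 24 hrs post-5-day. It read 5.78, 6.51, 5.97 and 6.11 in Ctrl and 5.98, 5.73, 5.59, 5.83 and 6.04 in AggE at 24 hrs post-10-day. The groups overlapped each time, with differences of -0.17 ± 0.25 (interval -0.68 to 0.34) and -0.26 ± 0.25 (interval -0.77 to 0.25). Hpx read 7.98, 8.24, 7.83 and 7.96 in Ctrl and 7.93, 8.37, 8.76, 8.35 and 7.11 in AggE after 5 days. AggE mouse 5 was the lowest and 3 of the other 4 stood above all Ctrl livers. The arrays of AggE mice 1 and 5 had a far background fit here. With repaired backgrounds mouse 5 still read 7.59, below the Ctrl livers at 8.03 to 8.55. The difference was 0.10 ± 0.25 (interval -0.40 to 0.61) and after 10 days it was 0.09 ± 0.25 (interval -0.42 to 0.59). With repaired backgrounds the Hp differences were -0.13 and -0.24, and those of Hpx 0.10 and 0.10. Without the 8 arrays those of Hp were 0.22 and -0.38. Across 24 other settings, which include Cy3 alone and so the reference RNA, Hp kept its sign in 13 after 5 days and in 15 after 10 days. No direction can thus be given for Hp at either point. Without the 8 arrays the Hpx differences were 0.49 (unadjusted p = 0.027, limma adjusted p = 0.18, not called) and 0.0046.

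Itih3 and Itih4 encode heavy chains of the inter-alpha-trypsin inhibitor family, and they are neighbours on chromosome 14. Some members of the family, but not all, become attached to hyaluronan in extracellular matrix. After 5 days Itih3 read 6.61, 6.78, 7.16 and 6.37 in Ctrl and 8.26, 8.08, 8.20, 8.63 and 6.92 in AggE. Again 4 of 5 AggE livers were above every Ctrl liver and mouse 5 was not. The difference of 1.29 ± 0.41 (2.44-fold) was not called (limma adjusted p = 0.0702), and was -0.07 in the ratios of the series table. With repaired backgrounds Itih3 read 7.21, 7.36, 7.71 and 6.94 in Ctrl and 8.49, 8.59, 8.78, 9.20 and 7.90 in AggE, without overlap, and the change of 1.29 ± 0.30 was called (adjusted p = 0.0241). Without the 8 arrays it was called at 1.57 (adjusted p = 0.00503). After 10 days Itih3 read 6.35, 7.47, 7.35 and 7.12 in Ctrl and 8.58, 7.25, 7.02, 7.31 and 7.03 in AggE, where mouse 1 alone stood above the Ctrl range. The difference was 0.37 ± 0.41 (interval -0.46 to 1.19), against 0.29 with repaired backgrounds and 0.12 without the 8 arrays. With no normalization between arrays it turned to -0.30, and it kept its sign in 19 of 24 other settings. Itih4 read 3.61, 3.68, 3.11 and 3.47 in Ctrl and 3.45, 3.97, 3.79, 3.91 and 3.01 in AggE after 5 days. Those ranges overlapped, and the differences were 0.16 ± 0.32 (interval -0.49 to 0.80) after 5 and 0.21 ± 0.32 (interval -0.44 to 0.85) after 10 days. They were 0.08 and 0.16 with repaired backgrounds, and 0.42 and 0.04 without the 8 arrays. With no normalization between arrays they were -0.17 and -0.06, and the sign was kept in 17 and 20 of 24 other settings. No direction can thus be given for Itih4 at either point.

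**Figure D2:**
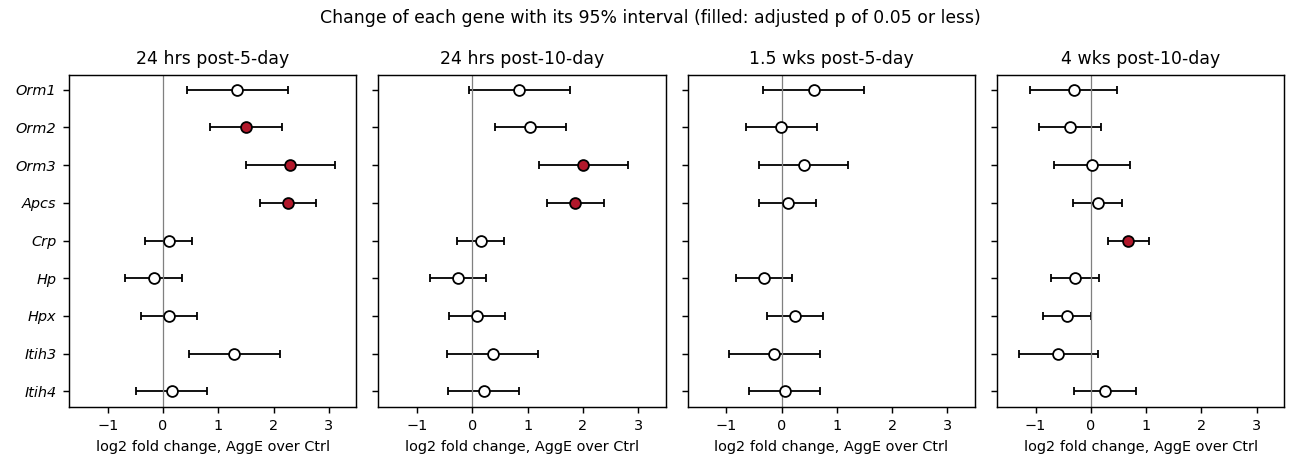
Log2 fold change of AggE over Ctrl (horizontal axes) for the 9 genes in the 4 comparisons, with 95% intervals from the limma fit; filled points had an adjusted p of 0.05 or less, and Crp at 1.5 wks is left out because no array was well above background. Filled points are Orm2, Orm3 and Apcs after 5 days, Orm3 and Apcs after 10 days, none at 1.5 wks, and Crp at 4 wks.

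Taking the 9 genes as a set of counts, repaired backgrounds raised the calls at 24 hrs post-5-day from 3 to 5 of 9 (Orm1, Orm2, Orm3, Apcs and Itih3, each with every AggE liver above every Ctrl liver), while the share of all genes called went from 3.19% to 1.45%. Leaving out the 8 arrays also gave 5 of 9, with 5.44% of all genes called. After 10 days the repaired backgrounds left 1 of 9, Apcs (0.0712% of all genes), and leaving out the 8 arrays left 2 of 9, Orm3 and Apcs (0.0986% of all genes). The Apcs call after 5 and after 10 days was thus common to the 3 ways of treating the arrays.

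The 5-day and 10-day changes at 24 hrs were set against each other in the same fit. No member was called in that difference, where 0.0329% of all genes were (6 genes), and as processed 0 of the 9 had an unadjusted p under 0.05. The largest difference was that of Itih3, 0.92, with an interval of -0.25 to 2.09. It was 1.00 (interval 0.14 to 1.86) with repaired backgrounds and 1.45 without the 8 arrays, with unadjusted p of 0.0244 and 0.00369, and was called in neither (limma adjusted p = 0.779 and 0.251). For Apcs the change after 5 days exceeded that after 10 days by 0.40 (interval -0.32 to 1.13), for Orm3 by 0.30 (interval -0.84 to 1.44) and for Orm2 by 0.45 (interval -0.47 to 1.37). The intervals leave room for sizeable differences in either direction for the orosomucoids.

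After rest, none of the orosomucoids, Apcs or Itih3 was called. The regimen of the 1.5 wks mice rests on their sample descriptions, since the titles of all 5 AggE mice and of 1 Ctrl mouse name 10 days instead. At 1.5 wks post-5-day 0 of 9 members and 0% of all genes were called, with 457 of all 18259 genes at an unadjusted p under 0.05 and 0 of the 9 members among them. The count of called genes was also 0% with repaired backgrounds (637 genes unadjusted) and 0% without the 8 arrays (753 genes unadjusted). Apcs read 0.09, 0.47, 0.31 and 0.41 in Ctrl and 0.17, 0.47, 0.25, 0.67 and 0.57 in AggE, a difference of 0.11 (interval -0.41 to 0.62). The groups overlapped and all 9 livers were below the lowest AggE liver of the 24 hrs points. Orm3 read 0.80, 0.99, 0.57 and 1.06 in Ctrl and 0.13, 2.57, 1.90, 1.17 and 0.52 in AggE, where the AggE livers spread on both sides of the Ctrl range. Its difference was 0.40 (interval -0.40 to 1.21), that of Orm2 0.00 and that of Orm1 0.58 (interval -0.33 to 1.49). Without AggE mouse 2, the array with a far background fit at this point, the Orm3 and Orm1 differences were 0.07 and 0.32. Leaving out each liver in turn gave 0.07 to 0.68 for Orm3 and 0.27 to 1.00 for Orm1 (highest without AggE mouse 1 for both), so single livers set the size of both.

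The decline of the Apcs change was itself tested. Its change at 24 hrs exceeded that at 1.5 wks post-5-day by 2.16 ± 0.36 (limma adjusted p = 0.00397), where 0.0876% of all genes were called (16 genes). It exceeded that at 4 wks post-10-day by 1.74 ± 0.33 (adjusted p = 0.0253), where 0.0767% of all genes were called (14 genes). With repaired backgrounds both were called, at 2.19 (adjusted p = 0.0154) and 1.84 (adjusted p = 0.0402). Without the 8 arrays the first of these was called at 2.03 (adjusted p = 0.028) and the second was not, at 1.80 (adjusted p = 0.126). With the slide as a random block neither was called, at 2.13 (adjusted p = 0.19) and 1.61 (adjusted p = 1.00). The same differences for Orm3 were 1.90 (adjusted p = 0.285) and 1.99 (adjusted p = 0.244), and for Orm2 1.51 (adjusted p = 0.296) and 1.44 (adjusted p = 0.351), none of them called. The second Orm2 difference was 0.73 with repaired backgrounds and 0.69 without the 8 arrays. In Cy5 alone, the liver channel, the first difference was called for Itih3 (1.89, adjusted p = 0.000213), Orm2 (1.94, adjusted p = 0.00351) and Apcs. In the ratio that of Itih3 was 1.42 and not called (adjusted p = 0.532). The 5-day and 10-day comparisons do not share Ctrl livers.

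At 4 wks post-10-day, 1 of 9 members was called, Crp, against 3.96% of all genes (723 genes). Crp read between 0.36 and 1.21 (median 0.62) in the 6 Ctrl livers and between 0.63 and 1.99 (median 1.44) in the 6 AggE livers. In 4 of 6 AggE livers it was above all Ctrl livers, and the ranges overlapped. The change was 0.67 ± 0.18 (1.59-fold, limma adjusted p = 0.0365) and 0.78 ± 0.21 with repaired backgrounds (adjusted p = 0.0481, 2.14% of all genes called). Without the 8 arrays, 3 of which belong to this point, it was 0.39 ± 0.19 and not called (adjusted p = 0.324, 2.16% of all genes called), so 3 of the 4 AggE livers that stood above the Ctrl range bore an array that the background fit set apart. With the slide as a random block it was 0.78 (adjusted p = 0.0891) and as a fixed block 1.12 (adjusted p = 0.122), called in neither. On the slide that held both groups, AggE mouse 1, whose array had the farthest background fit of all, read 1.99 and the Ctrl livers 0.77, 0.64 and 1.21.

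The other members were not called at 4 wks. Apcs ranged from 0.69 to 1.99 (median 1.18) in AggE and from 0.58 to 1.83 (median 0.93) in Ctrl, a difference of 0.12 (interval -0.32 to 0.56). It was -0.56 with no normalization between arrays and kept its sign in 13 of 25 settings, so no direction can be given for Apcs here. Orm3 ranged from 1.19 to 2.55 (median 1.45) in AggE and from 0.87 to 2.39 (median 1.42) in Ctrl, a difference of 0.02. Both pairs of ranges overlapped almost wholly. Orm1 (-0.31), Orm2 (-0.38) and Itih3 (-0.59) lay below 0, and Hpx was at -0.43 (unadjusted p = 0.0518). With repaired backgrounds Orm1, Orm2 and Itih3 were at 0.41, 0.33 and 0.10 instead, and Hpx was at -0.0055 (-0.10 without the 8 arrays), so no direction can be given for these 4 genes. The median change of the 9 was 0.06 at 1.5 wks and -0.29 at 4 wks, against -0.0041 and 0.009 for all genes, and in Cy5 alone it was -0.03 and 0.22, so its sign turned with the quantity at both points. The median of the 6 hepatocyte markers at 4 wks also turned, from -0.39 in the ratio to 0.07 in Cy5 alone.

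The levels ran in different orders over the 8 groups. For Orm1 the order of group means was AggE at 24 hrs post-5-day (7.05), AggE at 24 hrs post-10-day (6.64), the Ctrl groups of the same points (5.78 after 10 and 5.71 after 5 days), Ctrl and AggE at 4 wks (5.29 and 4.98), and AggE and Ctrl at 1.5 wks (3.40 and 2.82). Every neighbouring pair in that order overlapped. For Orm3 and Apcs the 2 AggE groups of the 24 hrs points came first. In that order the second and the third group did not overlap, the third being Ctrl at 24 hrs post-10-day for Orm3 and AggE at 4 wks for Apcs, and all other neighbouring pairs of both genes did. For Hp and Itih4 the order depended on the quantity. In the ratio Hp was highest at 1.5 wks (7.32 in Ctrl and 7.01 in AggE) and lowest in AggE at 24 hrs post-10-day (5.83), whereas in normalized Cy5 log2 intensity that last group was the highest (14.9), against 13.7 and 13.6 in Ctrl and AggE at 1.5 wks. Itih4 was highest at 1.5 wks in the ratio (4.18 in AggE and 4.12 in Ctrl), but in Cy5 it was highest in AggE at 24 hrs post-5-day (10.66), against 9.77 and 9.79 in AggE and Ctrl at 1.5 wks. The time points were hybridized on largely separate slides, so a level set against another time point cannot be told apart from its slide.

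**Figure D3:**
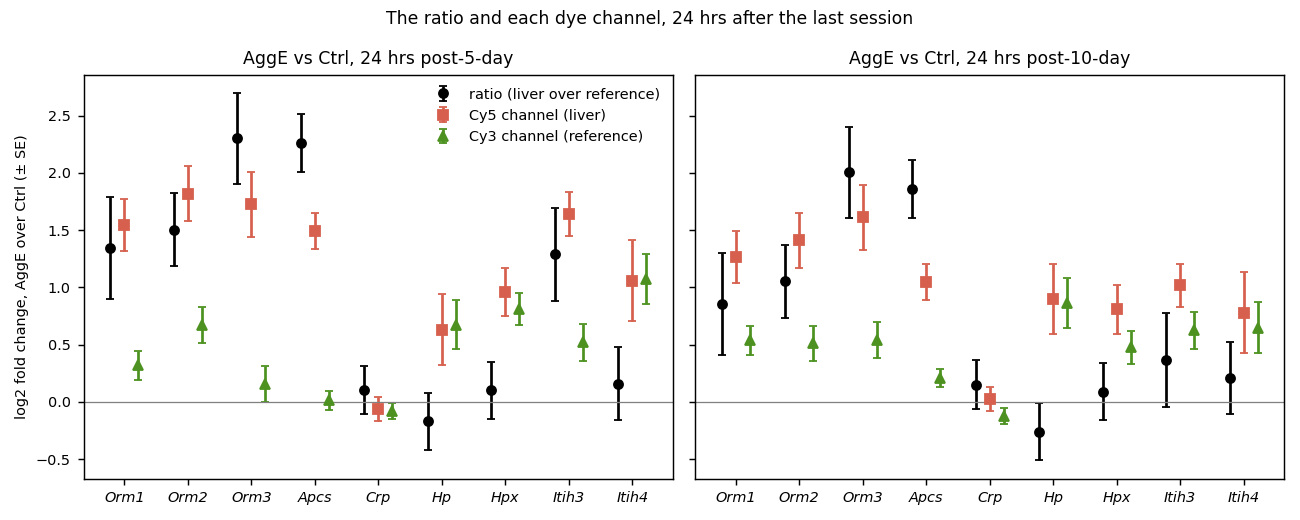
Log2 fold change of AggE over Ctrl with its SE (vertical axis) for the 9 genes at the 24 hrs points, from the ratio of liver to reference (black circles), the Cy5 channel alone (liver, red squares) and the Cy3 channel alone (reference RNA, green triangles). The Cy3 value of Apcs after 5 days sits at 0.01, with its probe well above background in Cy3 on 0 of the 9 arrays, and Hpx and Itih4 stand at 0.81 and 1.07 in Cy3.

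The ratio was taken apart into its channels, since the reference RNA in Cy3 was the same material on every array. In Cy5 alone, 6 of 9 members were called at 24 hrs post-5-day (4.68% of all genes): Itih3 at 1.64 ± 0.19 (limma adjusted p = 1.65e-06), Orm1 at 1.54 ± 0.23, Orm2 at 1.82 ± 0.24, Orm3 at 1.72 ± 0.28, Apcs at 1.49 ± 0.16 (adjusted p = 2.9e-07) and Hpx at 0.96 ± 0.21 (adjusted p = 0.00959). At 24 hrs post-10-day 5 of 9 were called in Cy5 (0.142% of all genes), the same genes without Hpx. Hpx was at 0.81 there (adjusted p = 0.266), and Hp, at 0.63 ± 0.31 and 0.90 ± 0.31, was called at neither point. Crp stayed at -0.06 ± 0.11 and 0.03 ± 0.11.

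The Cy3 channel was not flat. In Cy3 alone, 5 of 9 members were called as higher on AggE arrays at 24 hrs post-5-day, with 20.7% of all genes called: Itih4 at 1.07 (limma adjusted p = 0.000597), Hpx at 0.81 (adjusted p = 0.000118), Hp at 0.68 (adjusted p = 0.0219), Orm2 at 0.67 (adjusted p = 0.00182) and Itih3 at 0.52 (adjusted p = 0.0189). Apcs stood at 0.01 ± 0.08 and Orm3 at 0.15 ± 0.16 in Cy3, but their probes were well above background there on 0 and 1 of the 9 arrays, so these values lie near the floor. After 10 days no member was called in Cy3 (0.0438% of all genes), though 8 of 9 had an unadjusted p under 0.05, as had 1648 of all 18259 genes. Over the 39 arrays the Cy5 and Cy3 values of the same probe correlated at 0.92 for Hpx, 0.86 for Hp, 0.82 for Orm2, 0.81 for Orm1, 0.80 for Itih3 and Itih4, 0.73 for Orm3, 0.21 for Crp and 0.04 for Apcs, against a median of 0.42 over all genes. In Cy3 the probes of Apcs, Orm3 and Crp were well above background on 17, 14 and 5 of 39 arrays. How far this bears on their correlations was not tested. For Hpx, Hp and Itih4 the ratio and the Cy5 channel thus give different pictures of the 24 hrs points, and their Cy5 differences come with Cy3 differences of like size after 5 days. What moves the Cy3 values of these genes was not tested.

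**Figure D4:**
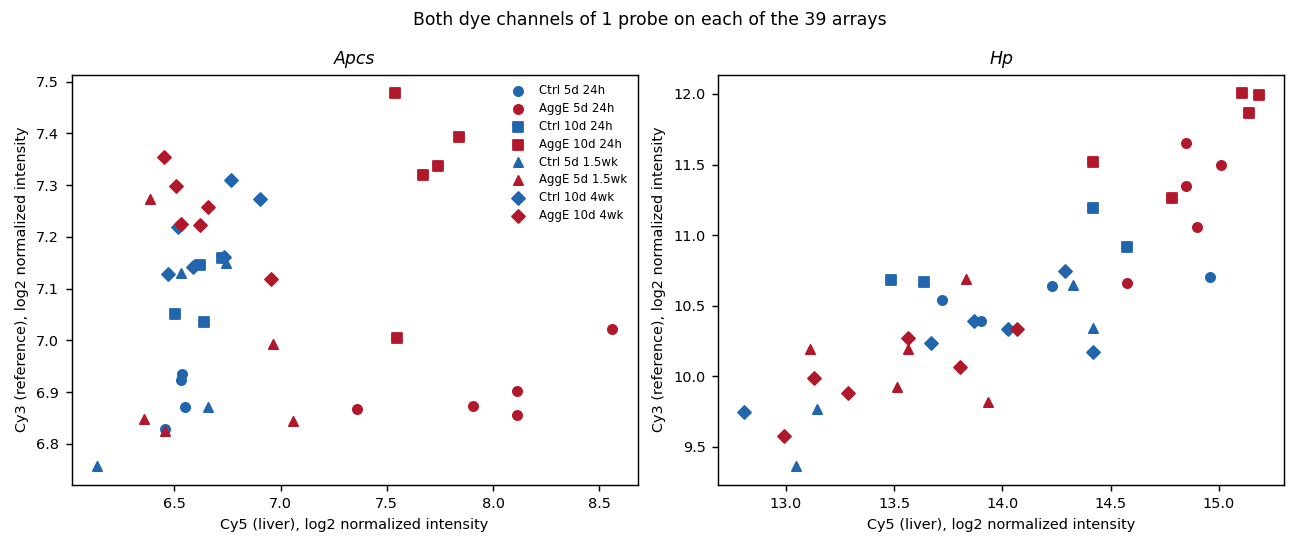
Normalized log2 intensity in Cy5 (liver, horizontal axes) and in Cy3 (reference RNA, vertical axes) for Apcs and Hp on each of the 39 arrays; colours mark AggE (red) and Ctrl (blue) and shapes the time point. The 2 channels of Hp rise together (correlation 0.86), and those of Apcs do not (0.04), but the Apcs probe was well above background in Cy3 on 17 of 39 arrays only and that of Hp on all 39.

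Other acute phase genes were called at the same points. Of 21 other positive acute phase genes on the array, 8 were called at 24 hrs post-5-day (3.19% of all genes) and all 8 were higher in AggE: the metallothioneins Mt2 (4.30) and Mt1 (3.74), which bind zinc, the serum amyloid A genes Saa3 (4.23) and Saa1 (3.74), the siderophore-binding Lcn2 (3.47), the protease inhibitor Serpina3n (2.41), complement C4b (1.12) and ceruloplasmin, Cp (0.71). At 24 hrs post-10-day 5 of 21 were called (0.0931% of all genes), all higher: Mt2 (4.15), Saa1 (3.49), Saa3 (3.32), Mt1 (3.14) and Lcn2 (2.90). With repaired backgrounds 9 and 5 of the 21 were called at these points, and without the 8 arrays 8 and 4, all higher. In Cy5 alone 9 were called higher and 1 lower after 5 days (4.68% of all genes), and 7 higher after 10 days (0.142% of all genes). In the ratio as processed the median change of the 21 genes was 0.71 and 0.40 at these points, 0.0078 at 1.5 wks and -0.24 at 4 wks. None was called at 1.5 wks, and at 4 wks Serpina3n was higher (1.34) and Saa4 lower (-1.18). Serpina3n was also called with repaired backgrounds (1.70) and without the 8 arrays (1.76), whereas Saa4 was called in neither (-0.42 and -0.62), and neither gene was called in Cy5 alone, where the list median at 4 wks was -0.10. Of 11 negative acute phase genes, whose products fall in plasma during inflammation, only Apoa4 was called at the 24 hrs points, and it was higher (1.98 and 2.63), with list medians of 0.0045 and 0.03. In Cy5 alone 3 of the 11 were called after 5 days and 1 after 10 days, all higher in AggE, with list medians of 0.23 and 0.03. Trf (transferrin) was called beside Apoa4 after 5 days without the 8 arrays (1.13), and the list medians were then 0.33 and -0.12.

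The genes that carry the signal into hepatocytes were also read. Of 24 genes for the receptors, kinases and transcription factors of IL-6, IL-1 and glucocorticoid signalling, 0 were called in any of the 4 comparisons with limma, and 7, 0, 0 and 5 had an unadjusted p under 0.05 at 24 hrs post-5-day, 24 hrs post-10-day, 1.5 wks and 4 wks. Of all 18259 genes, 3100, 515, 457 and 4059 had such a p, and the share called was 3.19%, 0.0931%, 0% and 3.96%, so a count of 0 of 24 lies near the share of all genes. After 5 days 2 of the 24 were called without the 8 arrays, the kinase Jak2 at 0.51 and the receptor Lifr at -1.49. In Cy5 alone 1 of them, the TNF receptor Tnfrsf1a, was called at 24 hrs post-5-day (0.48, adjusted p = 0.0212). After 5 days Stat3, the transcription factor of IL-6 signalling, stood at 0.27, its feedback inhibitor Socs3 at -0.09, Cebpb at -0.17, Cebpd at 0.22 and the glucocorticoid target Fkbp5 at -0.36. The list medians were -0.06 and 0.02 at the 24 hrs points.

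Of 11 genes for hemoglobin and heme clearance, downstream of Hp and Hpx, 1 was called at 24 hrs post-5-day (3.19% of all genes), the biliverdin reductase Blvrb, which fell by 0.62 (limma adjusted p = 0.00789). It was also called with repaired backgrounds (-0.64) and without the 8 arrays (-0.59), but not in Cy5 alone (-0.38, adjusted p = 0.368). The haptoglobin receptor Cd163 stood at 0.10, the hemopexin receptor Lrp1 at 0.54 (adjusted p = 0.0592) and heme oxygenase Hmox1 at 0.14. None of the 11 was called after 10 days. Of 17 partners of the inter-alpha-trypsin inhibitor and of the pentraxins, 0 were called at either 24 hrs point (3.19% and 0.0931% of all genes; 1 and 3 at an unadjusted p under 0.05; 0 in Cy5 alone at both), and the companion chains Ambp, Itih1 and Itih2 stood at 0.09, 0.29 and 0.36 after 5 days. There Ambp (0.54) and the complement gene C1qc (-0.92) were called without the 8 arrays. At 4 wks, where 3.96% of all genes were called, 1 gene of each of these lists was called, a count near that share. The Fc receptor Fcgr1 was lower (-0.37), also with repaired backgrounds (-0.40) and without the 8 arrays (-0.33). The iron exporter Slc40a1 was called lower as processed (-0.80), but not with repaired backgrounds (-0.57) or without the 8 arrays (-0.83), and neither gene was called in Cy5 alone (-0.20 and -0.42).

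Markers of other cells were read beside these results. Of 9 neutrophil markers, 8 were not well above background on any array of the 24 hrs groups. The mean log2 ratio of 7 Kupffer cell markers was 1.88 to 2.26 in AggE and 1.17 to 1.86 in Ctrl at 24 hrs post-10-day, without overlap. At 24 hrs post-5-day it was 1.69 to 2.28 against 1.55 to 1.94. Of the 7, 0 were called at either point in the ratio, where 3.19% of all genes were called after 5 and 0.0931% after 10 days. In Cy5 alone 1 of the 7 was called higher after 5 days (4.68% of all genes). The summed Cy5 signal of 6 erythroid markers (log2) was 12.77 to 13.09 in AggE and 12.05 to 12.71 in Ctrl after 5 days, and 12.27 to 13.43 against 11.69 to 12.22 after 10 days, without overlap. Their mean log2 ratio overlapped at both points, at 2.34 to 2.61 in AggE against 2.45 to 2.51 in Ctrl and at 2.14 to 2.39 against 1.93 to 2.25, and 0 of the 6 were called. Of 5 biliary markers, 1 was called after 5 days, Spp1 (1.29, limma adjusted p = 0.00331), while Krt19 stood at 0.34, Epcam at 0.02, Sox9 at -0.30 and Krt7 at -0.37, with a list median of 0.02, and Krt7, Epcam and Sox9 were well above background on no AggE array there. The part of these cells in the results for the 9 genes was not tested.

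The 9 genes fell into patterns over the 39 arrays, given here as a description, since all arrays share the same processing and time points differ in slide. In the ratio the closest pair was Orm2 with Itih3 (Pearson r = 0.89, and 0.79 after removing group means), followed by Orm3 with Apcs (0.84, but 0.15 after removing group means) and Orm1 with Orm2 (0.82 and 0.65). In Cy5 alone Orm1 with Hpx (0.91) and Orm2 with Hpx (0.90) were closer than Orm2 with Itih3 (0.84), and Orm1 with Hp went from -0.52 in the ratio to 0.71, so the order of pairs depends on the quantity. The genes named next were found on the ratio. Among 6613 genes well above background in Cy5 on at least 30 arrays, those most like Apcs were Ifi27l2b (0.94), the hepatocyte-secreted Fgl1 (0.93) and Apoa4 (0.88), and those most like Orm3 were Ifi27l2b (0.91), Apoa4 (0.86) and Cyb561 (0.86). After removing group means these fell to 0.61, 0.69 and 0.31 for Apcs and to 0.59, 0.17 and 0.46 for Orm3. Orm2 ran most closely with Carhsp1 (0.91), Slc6a12 (0.88) and Tnfrsf1a (0.87), and Orm1 with Ang4 (0.93), Coq8a (0.92) and Ldhd (0.92). Itih3 was most like C4b (0.85), Pzp (0.83) and Hrg (0.81), all secreted by liver into plasma. Hp was most like Car3 (0.92), Apoa1 (0.92) and Ftcd (0.90), Hpx like Adh1 (0.85), Mug2 (0.84) and F12 (0.84), Itih4 like Tcea3 (0.92), Gamt (0.91) and Ube2r2 (0.87), and Crp like Hsd3b3 (0.91), Cyp2c54 (0.89) and Slc30a1 (0.88).

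**Figure D5:**
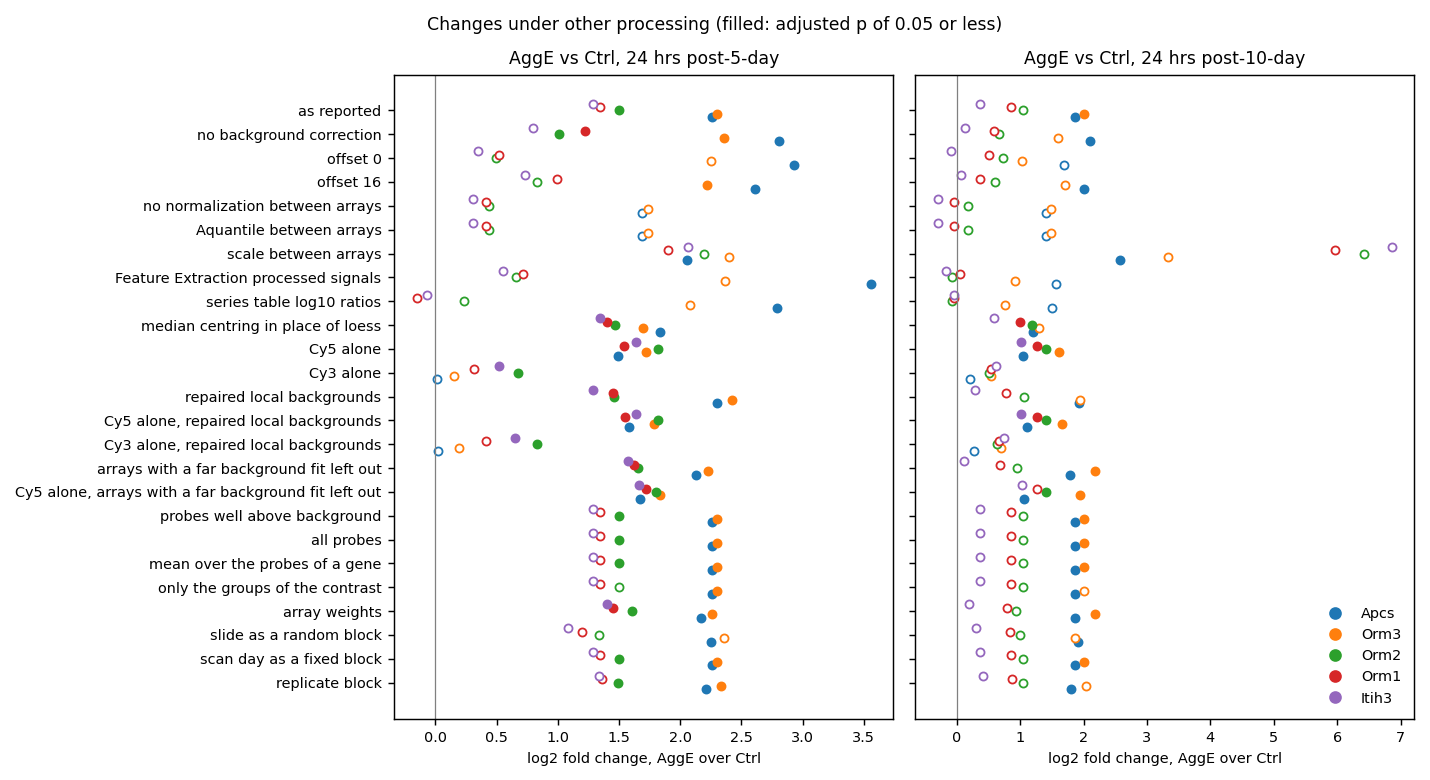
Log2 fold change of AggE over Ctrl (horizontal axes) for Apcs, Orm3, Orm2, Orm1 and Itih3 under each way of processing the arrays (vertical axis), at the 24 hrs points after 5 and 10 days; filled points had an adjusted p of 0.05 or less. Apcs is filled in 20 of 24 other settings after 5 days and in 17 of 24 after 10 days, more often than the other 4 genes.

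Across 24 other ways of processing the arrays, Apcs was called in 20 at 24 hrs post-5-day and in 17 at 24 hrs post-10-day. These and the like counts include Cy3 alone, with and without repair, which reads the reference RNA. Leaving out each liver in turn kept both Apcs calls in 9 of 9 cases. Orm2 and Orm3 were each called in 15 of 24 after 5 days and in 9 of 9 cases with 1 liver left out. The Orm3 call after 10 days was kept in 9 of 24 settings and in 3 of 9 cases, with an adjusted p of 0.0075 to 0.32, being lost without Ctrl mouse 2, 3 or 4 or AggE mouse 1, 3 or 4. The Crp call at 4 wks was kept in 7 of 25 settings and in 4 of 12 cases (adjusted p of 0.0158 to 0.0961), being lost without AggE mouse 1, 2, 3 or 5 or Ctrl mouse 1, 3, 4 or 5. With the slide as a random block Apcs was called after 5 days (2.25, limma adjusted p = 0.00389) and after 10 days (1.91, adjusted p = 0.0464), whereas Orm2 (1.33, adjusted p = 0.446) and Orm3 (2.36, adjusted p = 0.198) were not called after 5 days, nor Orm3 after 10 days (1.87). With no normalization between arrays none of the 9 was called at either 24 hrs point, and Apcs stood at 1.69 (adjusted p = 0.123) and 1.41.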

How the data were processed

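Liver RNA of 39 mice was hybridized in Cy5 against a common reference RNA in Cy3, 1 array per mouse, on 11 slides scanned over 2 days. The authors deposited, for each spot and channel, the median intensity and the median intensity of its local background as read by Agilent Feature Extraction 11.5.1.1, without normalization. They also deposited processed intensities and log10 ratios of Cy5 over Cy3 from the same software, and a series table of the same log10 ratios, which served as alternatives. The labels of some mice disagreed on the regimen: all 5 AggE mice and 1 Ctrl mouse at 1.5 wks had titles naming 10 days, and for the AggE livers collected 24 hrs post-5-day a note gave 1 day of exposure. These mice were grouped by the description of the liver sample.

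Here, median intensities were background-corrected with normexp (offset 50), loess-normalized within and quantile-normalized between arrays with limma 3.58.1 in R 4.3.3 (statmod 1.5.0), giving log2 ratios. Control spots and outlier spots (0.295% to 1.46% per array) were left out and repeated spots averaged (245 probes). No member spot was saturated. The 8 group means were estimated in a joint fit with a common spread, and contrasts were tested with limma's moderated test and Benjamini-Hochberg adjustment over 25903 RefSeq probes. A gene entered by its probe of the highest mean signal, and 17016 of 18259 genes were named through a RefSeq table. Single-channel values were normexp-corrected and quantile-normalized per dye. Few arrays per group limit the precision. The procedure was tested on simulated data. Promoters were taken from RefSeq (GRCm38.p6) and searched with Python 3.11.15.

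The members and gene lists were chosen with earlier results of these data known. Genes named are all members, called genes of each list at a 24 hrs point (at most 8 per list), and the 3 genes most correlated with each member. A few further genes (Stat3, Socs3, Cebpb, Cebpd, Fkbp5, Tnfrsf1a, Cd163, Lrp1, Hmox1, Ambp, Itih1, Itih2, Lifr, Jak2, C1qc, Trf, and those called at 4 wks only) were chosen after their values were seen. Alternatives changed the background correction, normalization, channel, probes, arrays, weights and blocks. Median centring, Cy3 alone, the repaired backgrounds and leaving out the 8 arrays with a far background fit were chosen after seeing the data. Samples with the same replicate number did not deviate together (correlations -0.44 to 0.52), so the numbers were not used to pair mice.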

Additional observations from a re-analysis of the deposited data

Results flagged for a closer look

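In 9 of 72 groups of member values, 1 liver stood apart from the others of its group by Dixon's criterion, which chance alone flags in about 1 group in 20. The highest livers set apart in this way were Ctrl mouse 3 for Orm2 at 24 hrs post-5-day (6.76), AggE mouse 3 for Crp at 24 hrs post-10-day (1.86), AggE mouse 1 for Hpx (7.90) and Itih3 (8.58) at 24 hrs post-10-day, AggE mouse 5 for Itih4 at 1.5 wks (4.63), AggE mouse 5 for Orm3 at 4 wks (2.55) and Ctrl mouse 6 for Hp at 4 wks (7.03). The lowest ones were Ctrl mouse 1 for Hpx at 24 hrs post-10-day (7.11) and Ctrl mouse 1 for Itih4 at 1.5 wks (3.46). AggE mouse 1 at 24 hrs post-10-day is 1 of the 8 arrays with a far background fit.

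The Apcs change differed between times as processed, by 2.16 between 24 hrs and 1.5 wks post-5-day and by 1.74 between 24 hrs and 4 wks post-10-day (limma adjusted p = 0.00397 and 0.0253). Both were also called with repaired backgrounds (limma adjusted p = 0.0154 and 0.0402). Taking the slide as a random block ended both calls (adjusted p = 0.19 and 1.00), and the second was not called without the 8 arrays (adjusted p = 0.126). On the slide shared by 1 AggE liver of 24 hrs post-5-day and 3 of 1.5 wks, Apcs read 2.72 in the former and 0.17, 0.25 and 0.67 in the latter.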

How the results depend on the processing

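At 24 hrs post-5-day, 3 of the 9 genes were called as reported, 5 with median centring, array weights, Cy3 alone (also with repaired backgrounds), repaired backgrounds, without the 8 arrays or at 2-fold with an unadjusted p, 6 in Cy5 alone with or without the repair, 7 in Cy5 without the 8 arrays, 1 with an offset of 0, scale normalization, the processed signals, the series table or the slide as a random block (correlation 0.3208), and 0 with no normalization between arrays or Aquantile. At 24 hrs post-10-day, 2 became 5 in Cy5 alone (repaired or not), 3 with median centring, 1 with no background correction, an offset of 16, scale normalization, repaired backgrounds, a fit of the compared groups only, the slide block or the replicate block, and 0 with an offset of 0, no normalization between arrays, Aquantile, the processed signals, the series table or Cy3 alone (repaired or not). At 1.5 wks the count was 0 in every setting run. The single call at 4 wks (Crp) went to 0 in 18 of 25 settings, among them Cy5 alone, and at 2-fold with an unadjusted p. The single call of the difference between 24 hrs and 1.5 wks (Apcs) became 3 or 4 in Cy5 alone, with median centring or at 2-fold, and that between 24 hrs and 4 wks 2 with array weights, 3 at 2-fold and 0 with median centring, without the 8 arrays or in a fit of the compared groups only, while both went to 0 with an offset of 0, no normalization between arrays, Aquantile, scale, the processed signals, the series table, Cy3 alone or the slide block. Without 1 liver the counts were 3 to 4, 1 to 2, 0, and 0 to 1 in the 4 comparisons, and 0, 1, and 0 to 1 in the 3 differences. Hp at 24 hrs post-5-day turned from -0.17 to 0.68 in Cy3 alone and 0.70 with repair.

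Cy3 alone reads the channel of the reference RNA. The fit with the replicate number as a block called 3, 1, 0 and 1 members in the 4 comparisons. The slide as a fixed block could not be fitted at 24 hrs. The number of all genes called at 24 hrs post-5-day ran from 9 with the slide block to 1424 in Cy5 without the 8 arrays and 3820 in Cy3 with repair (583 as reported), and at 4 wks from 0 with scale normalization or Cy3 alone to 1894 with array weights (723 as reported). The cause of these shifts was not tested. Dim probes limit Crp, and Orm3 and Apcs in Ctrl.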
